A study of Rattus norvegicus with 24 samples.

Results

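The genes followed here were 6 genes through which mast cells are usually recognised: Cpa3, Hdc, Fcer1a, Mrgprx2, Kit and Gata2. They were chosen by name and read from the deposited table of gene counts by their Ensembl identifiers, as 6 of 32883 genes. All 6 passed the filter on low counts in each week. The libraries came from the lungs of 24 male wild-type Sprague-Dawley (SD) rats. MCT rats received monocrotaline, a plant alkaloid that injures the lung vessels and brings on pulmonary hypertension, as an intraperitoneal injection of 50 mg/kg, and PBS rats received buffer. There were 4 MCT and 4 PBS rats at each of Week 1 (day 7), Week 2 (day 14) and Week 3 (day 21), and each rat gave 1 library of lung RNA. Their age was not given in the sources used here. The question was how each of the 6 genes differed between MCT and PBS lungs as the disease developed, and whether the genes varied together between rats of the same group.

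Mast cells are tissue-resident cells of the blood lineage that store histamine and proteases in granules. In the lung they lie along airways and vessels. They empty their granules when antigen cross-links IgE on the high-affinity IgE receptor, and in human also when basic peptides act on MRGPRX2. They mature and survive under stem cell factor, the ligand of KIT, and GATA2 is among the transcription factors that set their gene programme. Cpa3 encodes carboxypeptidase A3, a granule exopeptidase, and Hdc encodes histidine decarboxylase, which makes histamine. Fcer1a encodes the IgE-binding chain of the high-affinity receptor. Kit and Gata2 are less restricted than the other 4 genes: both are also used by blood progenitors, and in mouse lung by endothelial cells.

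In the annotation of the deposited counts (Rnor_6.0), Cpa3 (ENSRNOG00000011181) spanned chr2:105016626-105047984, Hdc (ENSRNOG00000010262) chr3:119057517-119075619, Fcer1a (ENSRNOG00000009177) chr13:91730925-91737053 and Mrgprx2 (ENSRNOG00000033665) chr1:103741503-103760913, all on the minus strand. Kit (ENSRNOG00000002227) spanned chr14:35072108-35149610 on the minus strand and Gata2 (ENSRNOG00000012347) chr4:120133713-120142488 on the plus strand. No other annotated gene overlapped any of these spans. Counts were summed over exons, which covered 1602 bases for Cpa3, 2367 for Hdc, 977 for Fcer1a, 4359 for Mrgprx2, 5264 for Kit and 3411 for Gata2.

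All 6 genes had an entry in the RefSeq promoter table of a later build (GRCr8), from 250 bases before to 50 bases after the annotated start. The 3 windows printed here are those of genes with the largest differences in the data, Cpa3 (chr2:104673188-104673487), Fcer1a (chr13:88224630-88224929) and Mrgprx2 (chr1:107256443-107256742), all read on the minus strand. Capitals mark matches to GATAA, the letters at the core of sites bound by GATA factors, and to CATGTG, an E-box variant bound by MITF, another transcription factor of mast cells, each on either strand (TTATC and CACATG on the other strand).
Cpa3: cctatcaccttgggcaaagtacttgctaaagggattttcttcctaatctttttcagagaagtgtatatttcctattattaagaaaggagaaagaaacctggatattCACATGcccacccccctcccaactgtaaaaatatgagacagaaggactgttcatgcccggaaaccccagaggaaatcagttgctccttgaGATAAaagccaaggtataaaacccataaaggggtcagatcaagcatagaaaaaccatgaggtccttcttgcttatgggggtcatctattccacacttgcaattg
Fcer1a: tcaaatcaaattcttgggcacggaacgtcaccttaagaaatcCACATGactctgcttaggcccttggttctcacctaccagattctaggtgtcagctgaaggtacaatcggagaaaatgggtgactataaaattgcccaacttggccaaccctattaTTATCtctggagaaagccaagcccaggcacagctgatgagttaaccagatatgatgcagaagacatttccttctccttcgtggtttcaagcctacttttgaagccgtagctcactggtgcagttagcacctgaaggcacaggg
Mrgprx2: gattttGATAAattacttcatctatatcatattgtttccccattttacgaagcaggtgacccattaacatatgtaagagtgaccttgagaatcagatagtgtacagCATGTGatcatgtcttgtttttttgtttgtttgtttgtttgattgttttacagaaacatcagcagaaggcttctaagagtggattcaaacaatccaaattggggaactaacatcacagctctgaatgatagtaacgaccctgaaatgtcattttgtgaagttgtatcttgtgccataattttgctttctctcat
Each of these 3 windows held 1 match to GATAA and 1 to CATGTG, and none overlapped. In Cpa3 the GATAA match lay at −54 to −50 and the CATGTG match at −144 to −139 relative to the start. In Fcer1a the matches lay at −93 to −89 and at −208 to −203, and in Mrgprx2 at −244 to −240 and at −144 to −139. The Mrgprx2 window lies inside the span of the gene, at a start downstream of its outermost one. The windows of Hdc, Kit and Gata2 held neither motif, and none of the 6 held CACGTG, another E-box. Among all 33469 RefSeq promoters of this length, 26.5% held GATAA, 14% held CATGTG and 6.42% held CACGTG, so these matches describe the letters only and say nothing about which factor was bound.

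Library totals ran between 19804731 and 32835200 counts. The libraries of PBS rats 1 and 3 of Week 1 stood apart: they held 19804731 and 20509197 counts and 14706 and 12491 genes with at least 10 counts, whereas the other 22 libraries held at least 28357609 counts and between 15614 and 16428 such genes. The Week 1 fold change of each of the 6 genes is therefore given with and without these 2 libraries. Levels are given in CPM, the usual unit of a count relative to the total of its library, with totals scaled by the trimmed mean of M-values (TMM) over all 24 libraries, for rats 1 to 4 of each group in that order. Differences are log2 fold changes, MCT over PBS, from edgeR's quasi-likelihood test within each week. A gene was called when its Benjamini-Hochberg adjusted p over all genes tested was under 0.05 and its change exceeded 1.5-fold.

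In Week 2 and in Week 3, all 6 genes were called, 4 upward (Cpa3, Hdc, Fcer1a and Mrgprx2) and 2 downward (Kit and Gata2). Among all genes tested, 9.43% were called in Week 2 (6% upward and 3.43% downward) and 22.1% in Week 3 (11.1% upward and 11% downward). In these 2 weeks the 4 MCT and 4 PBS rats did not overlap in any of the 6 genes, a separation shown by 22.4% of the genes tested in Week 2 (12% with MCT above and 10.3% with MCT below) and 31.6% in Week 3 (16.2% above and 15.4% below). In Week 1 edgeR called 0 of the 6 genes, with 1 at an unadjusted p under 0.05, and DESeq2 and limma-voom each called 1 (Kit). The share called by edgeR among all genes tested was 0.0894% (0.0703% upward and 0.0192% downward). The median log2 fold change over the 6 genes for Weeks 1, 2 and 3 was -0.86, 2.07 and 2.89, and over all genes tested it was -0.04, -0.00161 and 0.01. Without PBS rats 1 and 3, the Week 1 median was 0.48 over the 6 genes and 0.00721 over all genes tested. The identifiers of the 6 genes and of the further genes named below came from the study's list of genes called in these same libraries. Counts of called genes among them, also beside the shares over all genes, are therefore not independent evidence of a change or of its direction. In whole lung, more mast cells, more RNA per mast cell and RNA from other cells that use these genes cannot be told apart.

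**Figure D1:**
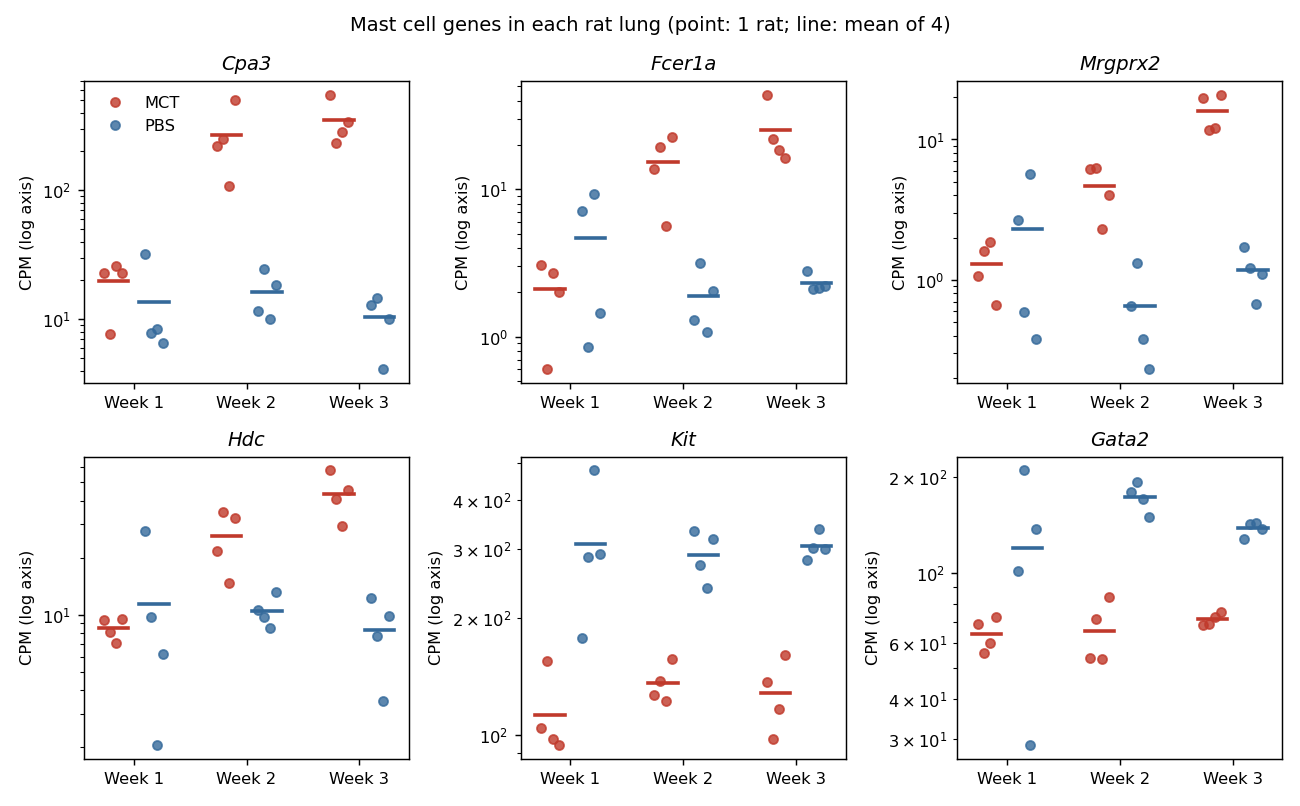
Level of each gene in every rat lung, in CPM on a log axis, by week. Each point is 1 rat, lines are the means of 4 rats, and MCT rats stand left of PBS rats. In Weeks 2 and 3, the MCT points of Cpa3, Fcer1a, Mrgprx2 and Hdc lie above all PBS points of the same week and those of Kit and Gata2 lie below them.

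Cpa3, the granule carboxypeptidase, showed the largest difference of the 6 genes. Its level in Week 2 was 222, 250.3, 108 and 498 CPM in MCT rats, against 11.5, 24.5, 10.04 and 18.6 CPM in PBS rats. In Week 3 it was 551, 233, 285 and 336 CPM in MCT rats, against 12.9, 14.5, 4.08 and 10.04 CPM in PBS rats. Every MCT rat of these weeks exceeded every PBS rat, and the lowest MCT rat of Week 2, rat 3, was still above the highest PBS rat of any week. Cpa3 averaged 269.6 ± 164 CPM in MCT rats and 16.1 ± 6.69 CPM in PBS rats of Week 2 (SD, n = 4 each), a log2 fold change of 4.06 (SE 0.457, adjusted p = 2.08e-04), or 16.7-fold. In Week 3 it averaged 351 ± 139 CPM in MCT rats and 10.4 ± 4.59 CPM in PBS rats (SD, n = 4 each), with a log2 fold change of 5.06 (SE 0.406, adjusted p = 1.96e-05) in edgeR's test, or 33.4-fold. Ordered by log2 fold change from the top, Cpa3 stood at place 17 of the 16108 genes tested in Week 2 and at place 36 of the 16138 tested in Week 3.

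Week 1 did not show this separation. Cpa3 had 22.7, 7.62, 25.9 and 22.9 CPM in MCT rats, against 32.0, 7.87, 8.38 and 6.54 CPM in PBS rats, and the groups overlapped. PBS rat 1, with the highest value, and MCT rat 2, among the lowest, set this overlap. The log2 fold change in edgeR's test was 0.54 (SE 0.599, adjusted p = 1.000), and 1.45 (SE 0.463, adjusted p = 0.18 in edgeR's test) without PBS rats 1 and 3.

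Hdc, the histamine-making enzyme, was also higher in MCT lungs of both later weeks. In Week 2 it had 21.8, 34.9, 14.6 and 32.3 CPM in MCT rats, against 10.6, 9.75, 8.55 and 13.2 CPM in PBS rats. In Week 3 it had 57.7, 41.0, 29.5 and 45.4 CPM in MCT rats, against 12.3, 7.73, 3.51 and 9.78 CPM in PBS rats. The groups did not overlap in either week, although MCT rat 3 of Week 2 lay only just above PBS rat 4. The log2 fold change of Hdc was 1.30 (SE 0.255, adjusted p = 0.00543) in Week 2 and 2.36 (SE 0.332, adjusted p = 5.84e-04) in Week 3 by edgeR's test. Mean levels were 25.9 ± 9.43 CPM in MCT and 10.51 ± 1.97 CPM in PBS rats of Week 2, and 43.4 ± 11.7 CPM in MCT and 8.33 ± 3.71 CPM in PBS rats of Week 3 (SD, n = 4 each). The Week 2 call of Hdc was lost when all 24 libraries shared 1 fit (edgeR, log2 fold change 1.30, adjusted p = 0.242), and it returned in that fit without PBS rats 1 and 3 of Week 1 (adjusted p = 0.00706). In Week 1, Hdc ranged between 7.08 and 9.52 CPM in MCT rats, and PBS rats 1 and 3 held the highest and the lowest of all 8 values, 27.6 and 2.05 CPM. The Week 1 log2 fold change of Hdc was -0.42 (SE 0.675, adjusted p = 1.000), and 0.09 (SE 0.294, adjusted p = 0.899 in edgeR's test) without these 2 rats.

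Fcer1a, the IgE-binding receptor chain, had 13.8, 19.3, 5.67 and 22.6 CPM in MCT rats of Week 2, against 1.30, 3.17, 1.08 and 2.04 CPM in PBS rats. In Week 3 the levels were 43.8, 21.9, 18.5 and 16.2 CPM in MCT rats, against 2.78, 2.12, 2.13 and 2.22 CPM in PBS rats. MCT rat 3 was the lowest MCT rat of Week 2 and MCT rat 1 the highest of Week 3, and the groups were apart in both weeks. The log2 fold change of Fcer1a was 3.01 (SE 0.450, adjusted p = 0.00110) in Week 2 and 3.42 (SE 0.319, adjusted p = 4.68e-05) in Week 3 by edgeR's test, or 8.08-fold and 10.7-fold. The PBS rats of Week 3 were close to each other at 2.31 ± 0.315 CPM, whereas the MCT rats spread widely at 25.1 ± 12.7 CPM (SD, n = 4 each). In Week 1, Fcer1a had 3.07, 0.599, 2.70 and 2.01 CPM in MCT rats, against 7.09, 0.849, 9.30 and 1.45 CPM in PBS rats. The 2 high PBS values were those of rats 1 and 3. With them the log2 fold change was -1.15 (SE 0.875, adjusted p = 1.000), and without them it was 0.86 (SE 0.69, adjusted p = 0.572 in edgeR's test).

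Mrgprx2, the receptor for basic peptides in human mast cells, was the lowest of the 6 genes, with 7 to 41 counts in the PBS libraries of Week 2 and 382 to 645 counts in the MCT libraries of Week 3. It had 6.14, 6.24, 2.32 and 4.01 CPM in MCT rats of Week 2, against 0.652, 1.33, 0.380 and 0.230 CPM in PBS rats. Week 3 levels were 19.6, 11.7, 12.1 and 20.8 CPM in MCT rats, against 1.72, 1.22, 0.674 and 1.11 CPM in PBS rats. The groups were apart in both weeks. All 4 MCT rats of Week 3 were above all 4 MCT rats of Week 2, a comparison not made over all genes. The PBS mean was also higher in Week 3 (1.18 CPM) than in Week 2 (0.647 CPM). Between these weeks the log2 fold change of Mrgprx2 moved by 0.92 (SE 0.911, adjusted p = 0.798 in edgeR's test), which was not called. The log2 fold change of Mrgprx2 was 2.85 (SE 0.523, adjusted p = 0.00383) in Week 2 and 3.75 (SE 0.329, adjusted p = 3.26e-05) in Week 3 by edgeR's test, or 7.20-fold and 13.4-fold. In Week 1, Mrgprx2 had 1.06, 1.60, 1.86 and 0.661 CPM in MCT rats, against 2.65, 0.588, 5.65 and 0.379 CPM in PBS rats, and PBS rats 1 and 3 again held the 2 highest values. Its Week 1 log2 fold change was -0.81 (SE 0.939, adjusted p = 1.000), and 1.41 (SE 0.688, adjusted p = 0.349 in edgeR's test) without these 2 rats.

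Kit, the stem cell factor receptor, went the other way. It had 127, 138, 122 and 157 CPM in MCT rats of Week 2, against 333, 273, 238 and 318 CPM in PBS rats. In Week 3 it had 137, 97.6, 117 and 161 CPM in MCT rats, against 281, 303, 338 and 299 CPM in PBS rats. Every MCT rat was below every PBS rat in both weeks. The log2 fold change of Kit was -1.10 (SE 0.120, adjusted p = 1.78e-04) in Week 2 and -1.27 (SE 0.150, adjusted p = 2.00e-04) in Week 3 by edgeR's test, so its level was 2.14-fold and 2.41-fold lower in MCT lungs. In Week 1, Kit had 104, 155, 97.9 and 94.3 CPM in MCT rats, against 178, 286, 477 and 292 CPM in PBS rats. These groups did not overlap either, as was so for 6.75% of the genes tested in Week 1 (4.99% with MCT above and 1.76% below), but scaling by library totals alone made them overlap. The Week 1 log2 fold change of Kit was -1.45 (SE 0.328, adjusted p = 0.201). It was the only 1 of the 6 genes with an unadjusted p under 0.05 in edgeR's Week 1 test, and it was called by DESeq2 (adjusted p = 0.00226) and by limma-voom with quality weights (adjusted p = 0.033). DESeq2 called 1.68% and limma-voom 0.907% of all genes in Week 1. With all 24 libraries in 1 fit, edgeR also called Kit in Week 1 (adjusted p = 3.73e-04), beside 3.21% of all genes. Without PBS rats 1 and 3, edgeR called Kit in Week 1 with a log2 fold change of -1.36 (SE 0.214, adjusted p = 0.0176).

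Gata2, the zinc finger transcription factor, had 53.9, 71.7, 53.4 and 83.7 CPM in MCT rats of Week 2, against 180.2, 193, 171 and 149.9 CPM in PBS rats. Week 3 gave 68.6, 69.1, 72.5 and 75.5 CPM in MCT rats, against 128, 143, 143 and 137 CPM in PBS rats. The groups were apart in both weeks, and the 4 MCT rats of Week 3 lay between 68.6 and 75.5 CPM. The log2 fold change of Gata2 was -1.40 (SE 0.150, adjusted p = 1.50e-04) in Week 2 and -0.97 (SE 0.0935, adjusted p = 6.05e-05) in Week 3 by edgeR's test. Gata2 averaged 71.4 ± 3.23 CPM in MCT and 138 ± 7.13 CPM in PBS rats of Week 3 (SD, n = 4 each). Its Week 3 call was lost when all 24 libraries shared 1 fit (edgeR, log2 fold change -0.95, adjusted p = 0.0567), and returned in that fit without PBS rats 1 and 3 of Week 1 (adjusted p = 3.8e-05). In Week 1, Gata2 had 68.9, 56.0, 60.3 and 72.5 CPM in MCT rats, against 101, 210.0, 28.7 and 138 CPM in PBS rats, where the lowest value was that of PBS rat 3. The Week 1 log2 fold change was -0.90 (SE 0.493, adjusted p = 1.000), and without PBS rats 1 and 3 it was -1.44 (SE 0.2, adjusted p = 0.0106 in edgeR's test), which was called. Without these 2 libraries, 2.04% of all genes tested were called in Week 1.

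**Figure D2:**
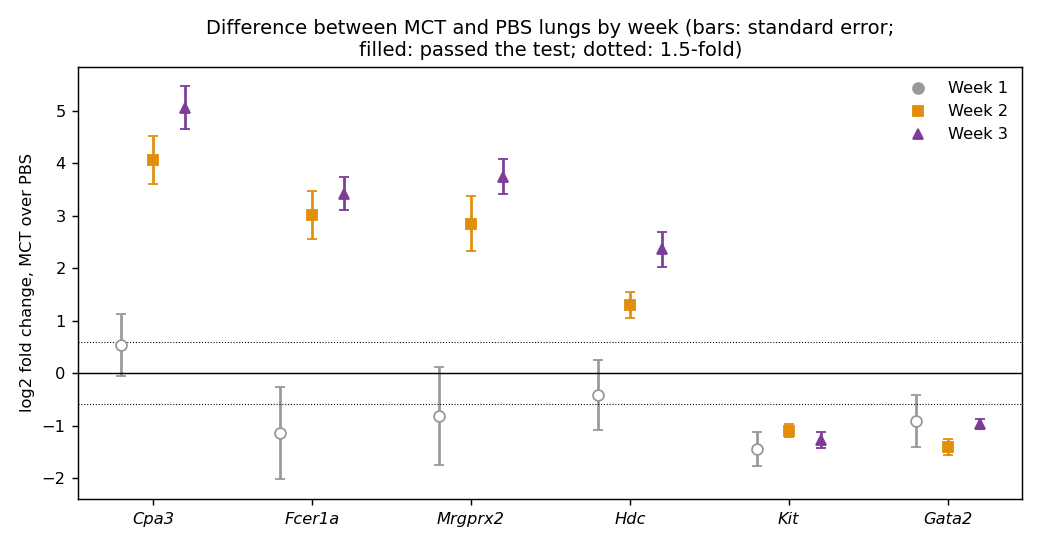
Log2 fold change, MCT over PBS, of each gene in Weeks 1, 2 and 3, with bars of 1 standard error. Filled symbols passed edgeR's test and dotted lines mark 1.5-fold. Cpa3, Fcer1a, Mrgprx2 and Hdc lie above 1 in Weeks 2 and 3, and Kit and Gata2 lie below 0 in all 3 weeks.

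Whether the difference between MCT and PBS itself changed with time was tested as an interaction over all 24 libraries. Between Week 1 and Week 3 the log2 fold change of Cpa3 rose by 4.54 (SE 0.768, adjusted p = 0.00258), that of Fcer1a by 4.58 (SE 0.890, adjusted p = 0.00544), that of Mrgprx2 by 4.59 (SE 0.939, adjusted p = 0.00747) and that of Hdc by 2.79 (SE 0.702, adjusted p = 0.0267) in edgeR's test. These 4 were called, as were 4.38% of all genes tested for this change. Without PBS rats 1 and 3 of Week 1, the 4 changes were 3.59 for Cpa3 (adjusted p = 0.00179), 2.55 for Fcer1a (adjusted p = 0.0158), 2.32 for Mrgprx2 (adjusted p = 0.026) and 2.25 for Hdc (adjusted p = 0.00293) in edgeR's test, all called, beside 22.8% of all genes. The changes of Fcer1a and Mrgprx2 were thus much smaller without these 2 libraries. The call of Hdc was lost, with adjusted p up to 0.0654 in edgeR's test, when any 1 of 6 libraries was left out: MCT rats 2 and 3 or PBS rat 1 of Week 1, or MCT rat 4 or PBS rat 2 or 3 of Week 3.

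Kit and Gata2 showed no called change with time. From Week 1 to Week 3 the log2 fold change of Kit moved by 0.20 (SE 0.315, adjusted p = 0.770) and that of Gata2 by -0.06 (SE 0.450, adjusted p = 0.960) in edgeR's test. The direction of these 2 estimates changed with the settings tried, which was not so for the other 4 genes.

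Between Week 1 and Week 2, edgeR called 0 of the 6 changes, and 0% of all genes. The changes of Cpa3, 3.52 (SE 0.754, adjusted p = 0.267), and of Fcer1a, 4.16 (SE 0.885, adjusted p = 0.267), were large but did not pass edgeR's test. Without PBS rats 1 and 3 of Week 1 they were smaller, 2.57 for Cpa3 (SE 0.681, adjusted p = 0.290) and 2.12 for Fcer1a (SE 0.721, adjusted p = 0.464) in edgeR's test, and that of Mrgprx2 was 1.40, against 3.67 with them. EdgeR then again called 0 of the 6 and 0% of all genes. With all 24 libraries, the unadjusted p in edgeR's test was under 0.05 for 4 of the 6 genes (Cpa3, Fcer1a, Mrgprx2 and Hdc), beside 900 of all 17206 genes tested. DESeq2 called 3 (Cpa3, Fcer1a and Mrgprx2), beside 28 upward and 13 downward among all 17206 genes. Between Week 2 and Week 3, edgeR and DESeq2 each called 0 of the 6. None had an unadjusted p under 0.05 in edgeR's test, beside 1750 of all 17206 genes. Without PBS rats 1 and 3 of Week 1, 2 had (Gata2 and Hdc), beside 4802 of all 17940 genes. Of all genes, edgeR called 0.0697%, and 7.95% without these 2 rats. The change of Cpa3 over that week was 1.02 (SE 0.733, adjusted p = 0.688) and that of Hdc 1.08 (SE 0.690, adjusted p = 0.635) in edgeR's test, so a further rise in the difference after Week 2 was not detected. The spread in this fit was estimated over all 24 libraries, PBS rats 1 and 3 of Week 1 included.

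Divided by exon length, the order of the 6 genes differed between MCT and PBS lungs. In MCT rats of Week 3, Cpa3 was highest at 219 CPM per kilobase, above Fcer1a at 25.7, Kit at 24.3, Gata2 at 20.9, Hdc at 18.3 and Mrgprx2 at 3.69 CPM per kilobase. Cpa3 and Mrgprx2 were apart from their neighbours in every rat, and the ranges of Fcer1a, Kit, Gata2 and Hdc overlapped from each to the next. In PBS rats of Week 3 the order was Kit at 58.0, Gata2 at 40.4, Cpa3 at 6.48, Hdc at 3.52, Fcer1a at 2.37 and Mrgprx2 at 0.271 CPM per kilobase. Kit was there above Gata2 and Gata2 above Cpa3 in all 4 rats, while Cpa3, Hdc and Fcer1a overlapped each with the next. In Week 2 the PBS order was the same, and in MCT rats Cpa3 led at 168 CPM per kilobase, followed by Kit at 25.8.

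Within a rat, the ratios between the genes also differed between groups. The ratio of Kit to Cpa3, each in CPM per kilobase of exon length as are all ratios here, was 0.118 ± 0.0301 in MCT rats of Week 3 and 11.8 ± 9.01 in PBS rats (SD, n = 4 each). The ratio of Cpa3 to Hdc was 11.9 ± 2.80 in MCT rats and 1.89 ± 0.593 in PBS rats of that week (SD, n = 4 each), and the 2 ranges, 8.41 to 14.3 in MCT and 1.52 to 2.77 in PBS rats, did not overlap. Cpa3 over Fcer1a stood at 9.04 ± 2.67 in MCT and 2.73 ± 1.23 in PBS rats (SD, n = 4 each), again without overlap. The ratios of Fcer1a to Mrgprx2, 7.15 ± 2.77 in MCT and 9.496 ± 3.14 in PBS rats of Week 3 (SD, n = 4 each), overlapped. Relative to both Hdc and Fcer1a, Cpa3 was thus higher in every MCT rat of Week 3 than in any PBS rat of that week.

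Covariation was measured on deviations of log2 CPM from the mean of the rat's own group, over the 16 rats of Weeks 2 and 3. The mean difference between MCT and PBS rats was thereby removed. Differences between rats of the same group, including any in the strength of the MCT effect, remained. MCT rat 3 of Week 2 was the lowest of its group in all 6 genes, with deviations of -1.12 for Cpa3, -1.25 for Fcer1a, -0.89 for Mrgprx2 and -0.74 for Hdc. MCT rat 1 of Week 3 was the highest of its group in Cpa3 (0.73), Fcer1a (0.92) and Hdc (0.45). PBS rat 3 of Week 3 was the lowest in Cpa3 (-1.19), Hdc (-1.09) and Mrgprx2 (-0.68).

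Of the 15 pairs of genes, 3 passed a permutation test of Pearson's r within groups after Benjamini-Hochberg adjustment over the 15 pairs, and all 15 correlations over the 16 rats were positive, from 0.12 to 0.77. All 15 were also positive in the 8 MCT rats and in the 8 rats of Week 2, but only 9 were in the 8 PBS rats (lowest r -0.51, Hdc and Gata2) and 9 in the 8 rats of Week 3 (lowest r -0.70, Fcer1a and Gata2, permutation p = 0.0217, adjusted p = 0.109). With Week 1 included, 8 of 15 were positive over all 24 rats (lowest r -0.60, Mrgprx2 and Gata2) and 13 over 22 rats without PBS rats 1 and 3 of Week 1. Cpa3 and Fcer1a gave r = 0.77 (permutation p = 8.60e-04, adjusted p = 0.0129) and rho = 0.76 (permutation p = 0.00335, adjusted p = 0.0376), with r = 0.79 without the 2 rats farthest from the median of Cpa3. By week this r was 0.95 in Week 2 and 0.49 in Week 3, and by treatment 0.88 in the 8 MCT rats and 0.65 in the 8 PBS rats. The granule enzyme and the IgE receptor chain thus tended to be high in the same rats, and the differences between weeks and treatments were not tested.

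Cpa3 and Hdc gave r = 0.77 (permutation p = 0.00469, adjusted p = 0.0352) and rho = 0.73 (permutation p = 0.00501, adjusted p = 0.0376). This r dropped to 0.55 without the 2 farthest rats, and it was 0.81 in MCT rats and 0.75 in PBS rats. Without the 2 farthest rats of each treatment it was 0.66 in MCT rats and 0.000316 in PBS rats. The PBS value thus rested on those 2 rats, and rho in PBS rats was 0.48. Fcer1a and Hdc gave r = 0.59 (permutation p = 0.00708, adjusted p = 0.0354) and rho = 0.62 (permutation p = 0.00968, adjusted p = 0.0484). Here r was 0.41 without the 2 farthest rats, 0.87 in MCT rats and 0.27 in PBS rats. With Week 1 included this call was lost, at r = 0.11 (permutation p adjusted to 0.907) over all 24 rats and r = 0.41 (permutation p adjusted to 0.168) over the 22 rats, and 2 pairs passed in each, Cpa3 with Fcer1a and Cpa3 with Hdc. Within 8 rats alone, 0 pairs passed in MCT rats, 0 in PBS rats, 1 in Week 2 (Cpa3 and Fcer1a) and 0 in Week 3.

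Mrgprx2 did not pass with any other gene. Its r was 0.55 with Cpa3 (rho 0.50, permutation p = 0.0464 before and 0.174 after adjustment), 0.52 with Fcer1a and 0.46 with Hdc. Kit and Gata2 gave r = 0.39 (permutation p = 0.111, adjusted p = 0.239) and rho = 0.56 (permutation p = 0.0501, adjusted p = 0.188), and neither passed with any of the 4 genes that rose. The r of Kit with Cpa3 was 0.29 and that of Gata2 with Cpa3 was 0.42. Mrgprx2 had 7 counts in its lowest library of these weeks.

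**Figure D3:**
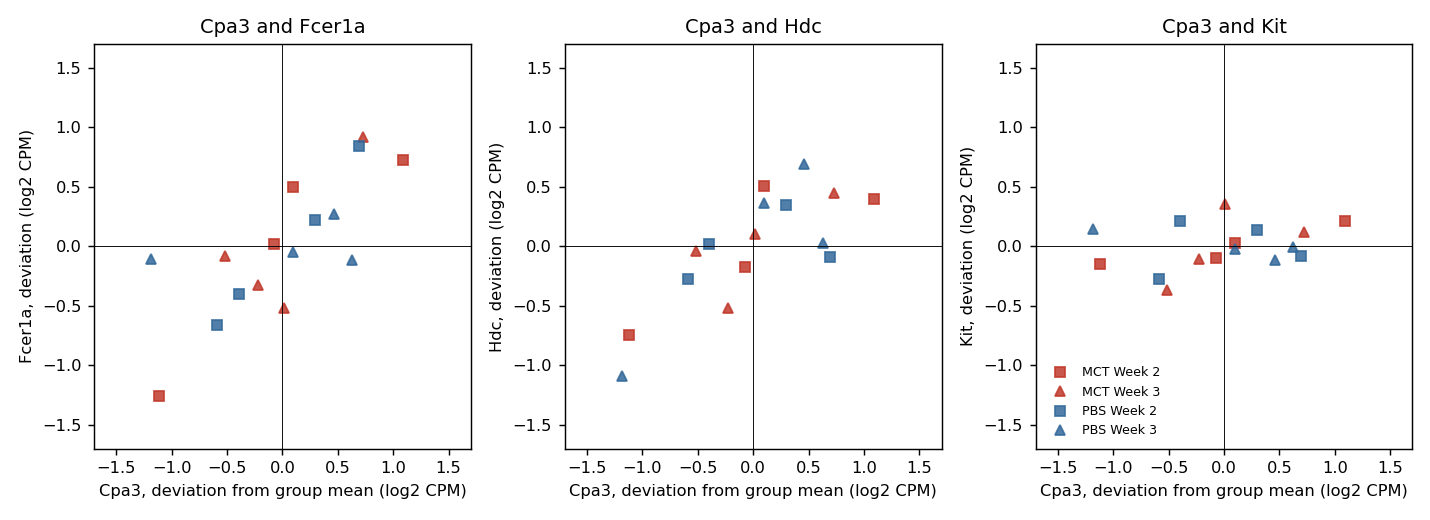
Deviation of each rat from the mean of its own group (log2 CPM) for Cpa3 on the x axis against Fcer1a, Hdc and Kit on the y axes, in the 16 rats of Weeks 2 and 3. Colours mark MCT and PBS, squares Week 2 and triangles Week 3. The points rise together for Fcer1a and for Hdc (both r = 0.77), and show little relation for Kit (r = 0.29).

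The genes whose deviations were most like those of each of the 6 were sought among 14594 genes over the same 16 rats, as a description. Of the 30 nearest places (5 for each gene), 27 different genes filled them, and 7 places went to a gene with a symbol. Cpa3 was the fourth nearest gene to Fcer1a. The nearest gene to Cpa3 was ENSRNOG00000049096 (r = 0.89), and it stood 3.13 higher in MCT lungs of Week 2 and 4.96 higher in those of Week 3 on the log2 scale. ENSRNOG00000020625 was among the nearest 5 of both Cpa3 (r = 0.86) and Hdc (r = 0.88), with log2 fold changes of 5.18 and 4.08. The nearest gene to Kit was Galnt15, a glycosyltransferase gene (r = 0.83), with log2 fold changes of -1.07 and -0.99. Further named neighbours included Carmil2 for Fcer1a (r = 0.77), Cd200r1l and Slc25a51 for Mrgprx2 (both r = 0.84), and Tango2 for Gata2 (r = 0.83). Each r was picked as among the highest of 14594 over 16 rats, and none was tested.

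Of 53 further genes of mast cell granules, receptors and lipid mediators, 11 could be matched to an identifier, and the tryptase and chymase genes were not among them. In each of Weeks 2 and 3, 7 of the 11 were called upward, 2 downward and 2 not called, with median log2 fold changes of 0.60 and 0.84. Csf2rb, the shared signalling chain of the IL-3, IL-5 and GM-CSF receptors, averaged 86.9 ± 27.5 CPM in MCT and 35.7 ± 4.02 CPM in PBS rats of Week 2, and 155 ± 23.4 CPM in MCT and 26.3 ± 8.83 CPM in PBS rats of Week 3 (SD, n = 4 each). Il1rl1, the IL-33 receptor of mast cells and type 2 lymphocytes, was called upward in Weeks 2 and 3 with log2 differences of 1.40 and 2.19, and Slc18a2, the vesicular transporter that loads histamine into granules, with 0.60 and 1.06. Cd200r1, an inhibitory receptor of myeloid cells, rose by 1.12 and 1.51, and Cd63, a granule membrane protein found in many cells, by 0.75 and 0.84. Ptgs1, the constitutive cyclooxygenase, rose by 0.59 and 0.85. Enpp3, a surface ectoenzyme of mast cells and basophils, was called upward in Week 2 only (0.68), and Fcer1g, the signalling chain of Fc receptors, in Week 3 only (0.62). Slc29a1, a nucleoside transporter, fell by 1.31 and 1.93, and Tal1, a transcription factor of blood and endothelial cells, fell by 0.78 and 0.69. These 11 include Il1rl1, Fcer1g and Tal1, which the lists of alarmins, of IgE receptor signalling and of endothelial markers below also hold. Rgs13, a regulator of G protein signalling, had log2 fold changes of 0.02 and -0.64 and was not called.

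Of 14 genes of the histamine pathway, 4 could be matched, which handle histamine outside the granule. Among these 4, Aoc1, the diamine oxidase that degrades extracellular histamine, was called upward in both weeks, with 101 ± 28.1 CPM in MCT and 19.7 ± 11.04 CPM in PBS rats of Week 2 and 182 ± 37.3 CPM in MCT and 20.7 ± 11.7 CPM in PBS rats of Week 3 (SD, n = 4 each). Slc22a3, an organic cation transporter, was likewise called upward (1.03 and 0.98). Maob and Maoa, the monoamine oxidases, were called downward in Week 3 only, at -1.41 and -0.96.

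Of 28 genes of IgE receptor signalling, 8 could be matched, of which 3 were called upward and 1 downward in each week. Plcg2, a phospholipase of immune receptors, was the gene that fell, by 0.81 and 1.10. Lcp2, an adaptor, and Ighe, the IgE heavy chain, were called upward only in Week 2 (0.70 and 1.41), and Btk, a kinase, only in Week 3 (0.95). Fcgr2b, the inhibitory Fc receptor that opposes Fcer1a, rose by 0.63 and 1.38. Ighe averaged 729 ± 251 CPM in MCT and 771 ± 525 CPM in PBS rats of Week 3 (SD, n = 4 each). Of the partners of Kit, only Sos1 and Pik3r1 were matched, with no call in Week 2 and log2 fold changes of -0.73 and -0.66, both called, in Week 3.

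The alarmin and type 2 list, which holds signals that act on mast cells and effector genes of type 2 inflammation, had 8 of 30 genes matched. Of these 8, 5 were called upward and 2 downward in Week 2, and 4 upward and 2 downward in Week 3. Il33, the alarmin that binds Il1rl1, fell by 1.05 and 2.17 on that scale, to 128 ± 23.4 CPM in MCT rats of Week 3, against 571 ± 79.9 CPM in PBS rats (SD, n = 4 each). Retnla, Arg1 and Chi3l1, effector genes made largely outside mast cells, rose by 3.11, 2.17 and 1.55 in Week 2 and by 2.64, 3.14 and 1.88 in Week 3. Gata3, the transcription factor of type 2 lymphocytes, fell by 1.08 and 1.41. The receptor Il1rl1 and its ligand Il33 therefore moved in opposite directions in the same lungs.

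Markers of other cells also differed between MCT and PBS lungs. Fcer1a, Hdc and Gata2 are also used by basophils, and of the basophil and eosinophil markers only Alox15, which is used by several cell types, could be matched. It fell by 1.65 in Week 2 and 1.92 in Week 3. Of 20 macrophage markers, 12 could be matched to an identifier, all through the study's list of called genes. Of these 12, 10 were called upward and 0 downward in each week, with summed levels of 2345 to 3474 CPM in MCT and 673 to 1013 CPM in PBS rats of Week 3. Of 44 endothelial markers, 32 could be matched in the same way. Of these 32, 0 were called upward and 21 downward in Week 2, and 0 upward and 29 downward in Week 3. Their summed level was 6800 to 8148 CPM in MCT and 13139 to 14200 CPM in PBS rats of Week 2. In Week 3 it was 4198 to 4582 CPM in MCT and 12641 to 14090 CPM in PBS rats. In these 2 weeks the log2 fold changes were -1.10 and -1.27 for Kit and -1.40 and -0.97 for Gata2. In Week 1, edgeR called 0 of the 32 endothelial markers, and it did not call Kit either (-1.45, adjusted p = 0.201 in edgeR's test). The markers ran from -1.995 to 0.993 in that week, with a median of -0.45, so Kit lay within their range. Of the 32, 13 had an unadjusted p under 0.05 in edgeR's test, counting both directions, as had Kit. Whether these group differences were linked was not tested. Median log2 fold changes of the endothelial markers in Weeks 2 and 3 were -0.81 and -1.52, with none of the 32 at 0 in any group, and those of the macrophage markers were 1.61 and 1.76. These lists could hold only genes that the study had called, so their counts cannot be set against the shares over all genes.

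Between rats of a group, no relation of these markers to the 6 genes was detected. In 12 relations over the 16 rats of Weeks 2 and 3, between the mean deviation of the endothelial or macrophage markers and the deviation of each of the 6 genes, 0 passed the permutation test, adjusted or not. For the endothelial markers, r was 0.11 with Kit (rho 0.12) and 0.13 with Gata2 (rho 0.08), with permutation p of 0.674 for each r. Without the 2 rats farthest from the median of the endothelial markers, r was 0.15 with Kit and 0.37 with Gata2. The highest r, 0.44, was between the macrophage markers and Hdc (rho 0.39, permutation p = 0.214). The part of other cell types in the differences of the 6 genes was not tested.

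**Figure D4:**
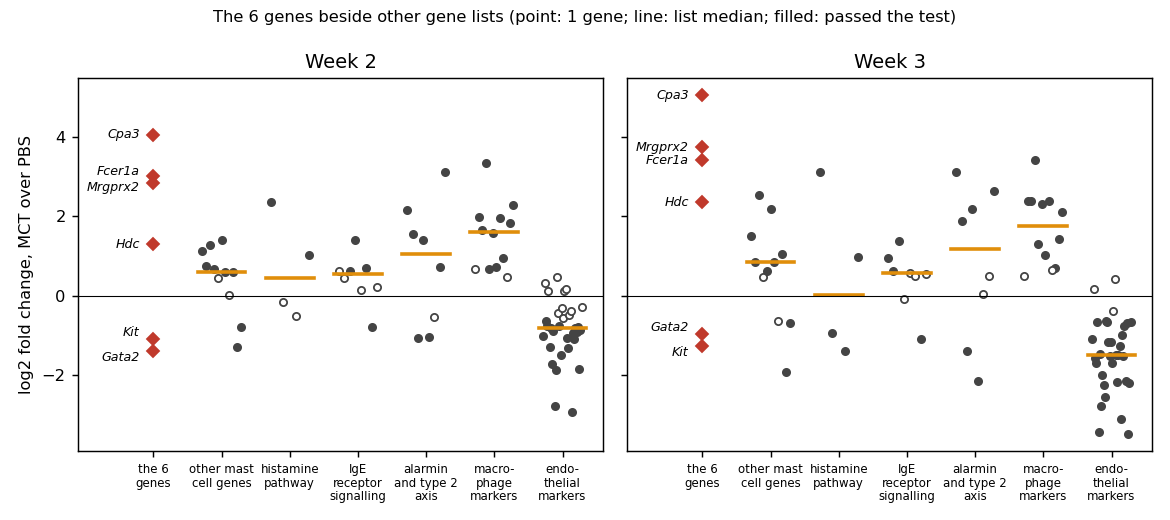
Log2 fold change, MCT over PBS, of the 6 genes (diamonds) and of the genes of 6 further lists (points, with a line at each list's median) in Weeks 2 and 3. Filled points passed edgeR's test. Cpa3 lies above every gene of the 6 lists in both weeks, and Kit and Gata2 lie within the range of the endothelial markers.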

How the data were processed

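Lung RNA of 24 rats (4 MCT and 4 PBS at each of 3 weeks) was sequenced from directional libraries. The deposited counts are whole reads per gene, which the authors made by alignment with HISAT2 (version 2.0.5) to Rnor_6.0 and counting with featureCounts (version 2.0.3), without normalization. The strand setting and the handling of multimapping reads were not given in the sources used here. The table held 32883 genes by Ensembl identifier. Symbols came from the study's own list of called genes, which pairs 3275 identifiers with a symbol and was held only in part.

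Counts were tested with edgeR (version 4.0.16; filterByExpr, TMM, quasi-likelihood test) within each week and, for the change of the MCT effect, over all 24 libraries, with limma (version 3.58.1) and DESeq2 (version 1.42.0) in R (version 4.3.3) as alternatives. Thresholds were an adjusted p of 0.05 and 1.5-fold. Log2 CPM used a prior count of 2. Correlations used 100000 permutations within groups. The 6 genes are all named. Of further lists, up to 4 called genes in each direction with the largest changes are named, and all of the mast cell and histamine lists may be. For likeness, the 5 genes with the highest r and a mean of at least 1 CPM were taken and those with a symbol named, apart from a gene that is not reported here; 2 unnamed identifiers were added after their values were seen. Genes and lists were chosen with earlier results of these data known. Replicate numbers did not pair the rats: deviations of same-numbered rats correlated from -0.12 to 0.27, above 0.1 in 2 of 12 pairs. The tests were checked on simulated data.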

Additional observations from a re-analysis of the deposited data

Results flagged for a closer look

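In 3 of the 36 groups of 4 rats (6 genes in 6 groups), 1 rat lay farther from the others than Dixon's limit for 4 values; chance alone does this in about 1 group in 20. They were PBS rat 1 of Week 1 for Cpa3 at 32.0 CPM, PBS rat 1 of Week 3 for Fcer1a at 2.78 CPM, and MCT rat 2 of Week 1 for Kit at 155 CPM. The difference between MCT and PBS lungs changed between Week 1 and Week 3 for 4 genes in edgeR's test of that change: by 4.59 on the log2 scale for Mrgprx2, 4.58 for Fcer1a, 4.54 for Cpa3 and 2.79 for Hdc. The PBS group of Week 1 enters each of these values, and it includes the 2 libraries that stand apart.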

How the results depend on the processing

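The calls of the 6 genes in Weeks 2 and 3 were kept when any 1 library was left out, and under the other settings tried except the Hdc and Gata2 calls named here. Requiring 10 counts in every library left Mrgprx2 out of Week 2. Week 1 estimates of Fcer1a, Mrgprx2 and Hdc changed sign with the setting, none of them called: 0.34, 0.88 and 0.14 with limma-voom, 0.86, 1.41 and 0.0926 without PBS rats 1 and 3 of Week 1, and 0.88, 1.44 and 0.12 in 1 fit over all libraries without those 2. With the replicate number as a block, Hdc was 0.14 in Week 1, and no call of the 6 genes in any week changed. Leaving out 1 library gave -0.80 to 0.50 for Hdc and -1.20 to 0.0932 for Mrgprx2 in Week 1. The number of genes called downward in Week 1 was 1 with limma-voom, with DESeq2 and with all 24 libraries in 1 fit, and 2 in each fit without PBS rats 1 and 3. In Week 3 it was 1 with all 24 libraries in 1 fit, which lost Gata2, as Hdc was lost in Week 2. With library totals alone, 0 genes had MCT below PBS in all rats of Week 1. For the change from Week 1 to Week 2, the number called upward was 3 with DESeq2, beside 28 of all 17206 genes, and 0 to 1 when 1 library was left out. For the change from Week 1 to Week 3, Gata2 was 0.0316 with RLE size factors, 0.0314 with DESeq2, 0.45 without PBS rats 1 and 3, and -0.48 to 0.27 when 1 library was left out, and Kit was -0.0938 to 0.39. Pairs of genes past the permutation test numbered 0 in MCT rats, 0 in PBS rats, 1 in Week 2 and 0 in Week 3. Over all 24 rats and over 22 rats without PBS rats 1 and 3 of Week 1 it was 2, with Fcer1a and Hdc lost. The sign of r changed for 7 of 15 pairs over all 24 rats, down to -0.60 for Mrgprx2 and Gata2 and including -0.0201 for Mrgprx2 and Hdc and -0.41 for Kit and Gata2, for 6 pairs in the 8 PBS rats, down to -0.51 for Hdc and Gata2 and including -0.0349 for Kit and Gata2, and for 6 pairs in Week 3, down to -0.70 for Fcer1a and Gata2; the cause was not tested. The alternatives without PBS rats 1 and 3 in 1 fit, and the library totals in the overlap, were chosen after seeing the data. With 4 rats a group and 7 to 59 counts of Mrgprx2 in several libraries, small differences were not detectable. The libraries of PBS rats 1 and 3, with lower totals and fewer detected genes than all others, limit Week 1.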
